A study of Mus musculus with 6 samples.

Results

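Long noncoding RNAs of 3 kinds were followed in RNA-seq of immortalized mouse pancreatic fibroblasts: the nuclear RNAs Malat1 and Neat1, the host genes of small nucleolar RNAs Gas5, Snhg1, Snhg4, Snhg8, Snhg12 and Snhg15, and the imprinted RNAs Meg3 and H19. The 10 genes were chosen by name, and their rows were taken by symbol from a table of 14831 genes. In the table, 9 of the 10 were found, in 10 rows, because Snhg4 has 2 rows. Meg3 had no row, under its symbol or its Ensembl identifier. All 10 rows passed the filter on low counts and were among the 14289 genes tested. H19 was the 1 member that changed by at least 1.5-fold, with a mean of 0.331 CPM in the WT-labelled libraries and 26.9 CPM in the KO-labelled ones.

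The cells are lines grown out from the adult pancreas of mice with floxed Gli alleles and then immortalized, on a strain background labelled Mixed. The 3 libraries labelled WT came from cells infected with Ad5 CMV-eGFP and Lenti dsRed, and the 3 labelled KO (genotype Gli2-/-;Gli3-/-) from cells infected with Ad5 CMV-eGFP and Ad5 CMV-Cre, so that eGFP adenovirus is shared and Lenti dsRed and Cre each belong to 1 group and their effects cannot be told apart from that of the genotype. The CMV promoter is not specific to a cell type, and the infected cells were sorted by flow cytometry. Each library is a well of cells grown to confluence in DMEM with calf serum, and the 3 wells of a group are wells of a line and not separate lines. The spread between them is the spread between wells, and p-values measure the difference between groups against that spread only. Any difference between the lines of the groups, which were infected and sorted separately by label, also cannot be told apart from that of the genotype.

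Small nucleolar RNAs (snoRNAs) guide the chemical modification of ribosomal RNA, and in mammals most are cut from the introns of host genes. Several hosts, Gas5 among them, make a spliced RNA that codes for no stable protein, begins with a run of pyrimidines and is degraded by nonsense-mediated decay when ribosomes engage it. Malat1 lies in nuclear speckles, Neat1 is the scaffold of paraspeckles, and both are among the most abundant nuclear noncoding RNAs. H19 and Meg3 are imprinted RNAs made from the maternal allele, abundant in the fetus and low in most adult tissues, and H19 carries the precursor of miR-675.

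The 3′ ends of Malat1 and Neat1 are shown first, because the libraries were prepared from polyadenylated RNA. Malat1 and the long form of Neat1 end in an A-rich run written in the genome, which pairs with 2 U-rich runs upstream. A poly(A) tail is added only to the short form of Neat1. The U-rich and A-rich runs, and the AATAAA signal of the short form, are in capitals. The sequences are from GENCODE M21 (GRCm38), 5′ to 3′ on the minus strand of chromosome 19.
Malat1, chr19:5795982-5796091: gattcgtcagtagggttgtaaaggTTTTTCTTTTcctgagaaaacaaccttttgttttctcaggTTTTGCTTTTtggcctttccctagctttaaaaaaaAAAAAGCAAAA
Neat1 long form, chr19:5824708-5824817: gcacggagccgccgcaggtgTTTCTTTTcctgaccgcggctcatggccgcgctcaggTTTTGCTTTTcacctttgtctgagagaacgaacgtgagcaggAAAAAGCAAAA
Neat1 short form, last 60 bases: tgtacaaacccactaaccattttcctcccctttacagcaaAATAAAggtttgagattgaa

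The snoRNAs inside the hosts are the stable products of those genes. For box C/D snoRNAs, the C box TGATGA and the D box CTGA are in capitals, and for H/ACA snoRNAs the ACA that precedes the last 3 bases. Snord47 and Snord80 lie in Gas5, Snord99 and Snora16a in Snhg12, Snora24 in Snhg8 and Snora9 in Snhg15, all from GENCODE M21 (GRCm38).
Snord47, chr1:161038082-161038158, plus strand: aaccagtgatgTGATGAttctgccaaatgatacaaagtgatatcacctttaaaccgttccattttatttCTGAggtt
Snord80, chr1:161037604-161037680, plus strand: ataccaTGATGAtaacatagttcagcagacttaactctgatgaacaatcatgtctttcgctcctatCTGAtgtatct
Snord99, chr4:132310691-132310764, plus strand: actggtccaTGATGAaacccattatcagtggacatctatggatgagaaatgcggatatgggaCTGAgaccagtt
Snora16a, chr4:132309465-132309600, plus strand: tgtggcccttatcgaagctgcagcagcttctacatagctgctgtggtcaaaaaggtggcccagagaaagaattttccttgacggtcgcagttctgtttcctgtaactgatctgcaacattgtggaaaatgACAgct
Snora24, chr3:123507937-123508066, minus strand: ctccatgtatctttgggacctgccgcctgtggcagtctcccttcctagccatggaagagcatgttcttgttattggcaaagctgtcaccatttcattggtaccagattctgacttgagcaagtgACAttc
Snora9, chr11:6528033-6528165, minus strand: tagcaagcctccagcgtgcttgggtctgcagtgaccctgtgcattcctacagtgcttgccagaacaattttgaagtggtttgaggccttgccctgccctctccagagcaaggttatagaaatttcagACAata

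Neither these 6 nor any other small RNA annotated inside the members had a row in the table, so only the host genes have values below. The snoRNAs of Gas5, Snhg1, Snhg8, Snhg12 and Snhg15 lie within annotated exons of their hosts. Host counts can therefore hold reads from those bases, and these cannot be told apart. Gas5 holds 10 annotated snoRNA entries, Snhg1 holds 8 and Snhg12 holds 5. H19 holds Mir675, and its 2 mature products are shown with the seed, bases 2 to 8, in capitals (RefSeq, GRCm38.p6, minus strand).
mmu-miR-675-5p, chr7:142577112-142577133: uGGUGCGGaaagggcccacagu
mmu-miR-675-3p, chr7:142577078-142577099: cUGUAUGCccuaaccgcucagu

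The targeted genes were read first. Gli2, a transcription factor of the Hedgehog pathway, had 809, 944 and 868 counts in the WT-labelled libraries and 1932, 2316 and 1926 in the KO-labelled ones, a log2 fold change of 1.05 (SE 0.04, adjusted p = 8.01e-10). Gli3, its paralog, had 392, 416 and 398 counts in the WT-labelled libraries and 1434, 1637 and 1404 in the KO-labelled ones, a log2 fold change of 1.71 (SE 0.05, adjusted p = 2.10e-11). Both go against the KO label, although a count by gene can hold reads from exons outside a deleted part. For its fibroblast lines the paper reports that Gli deletion was established by qPCR and western blot. It also reports that Gli2/Gli3 KO fibroblasts did not respond to Hedgehog stimulation. The pathway's targets Gli1 and Ptch1 were lower in the KO-labelled libraries, by log2 fold changes of -2.40 (SE 0.31) and -1.53 (SE 0.04). Directions below are therefore given by label.

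Libraries held between 31728420 and 41035931 counts, which puts the floor of 3 counts at 0.0720 to 0.0957 CPM. Markers of fibroblasts were abundant, with 10 of 12 in the table and a summed level of 44836 to 47249 CPM in the WT-labelled libraries and 36791 to 38541 CPM in the KO-labelled ones. Of the 9 tested fibroblast markers 1 was called higher and 5 lower, with a median log2 fold change of -0.66. Of 7 epithelial markers 4 were in the table, and their sum was 12.8 to 13.8 CPM and 29.5 to 30.4 CPM. Of the 3 epithelial markers tested, 2 were called higher and 0 lower. At the adjusted p alone 2 of them were higher and 1 was lower, with a lowest log2 fold change of -0.50. Among all tested genes 11.6% were called higher and 6.10% lower. Rn7sk, an RNA without a poly(A) tail, had 87, 80 and 45 counts and then 49, 44 and 50. Its groups overlapped although it was called lower (log2 fold change -0.75, SE 0.24, adjusted p = 0.0155). It was 1 of 8 tested genes listed for poly(A) selection and RNA quality. Of these, 0 were higher and 4 lower at the adjusted p alone, against 29.9% and 28.8% of all tested genes. Their median log2 fold change was -0.40, and the part of poly(A) selection in the results was not tested. Of 7 leukocyte markers 4 were in the table, with a sum of 55.6 to 60.8 CPM and then 52.4 to 54.1 CPM, while Ptprc, Adgre1 and Itgam had no row. Of 5 endothelial markers, 1 (Vwf) was in the table, at 0.866 to 1.60 CPM and 0.763 to 0.939 CPM. Of 8 acinar and islet markers, 1 (Cela1, a pancreatic elastase) was in the table, at 7.36 to 8.84 CPM and 13.6 to 15.4 CPM, and it was called higher (log2 fold change 0.87, SE 0.08, adjusted p = 1.13e-06). The part of such cells in the results was not tested. In bulk RNA, fewer cells of a type and less RNA per cell cannot be told apart.

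Of the 10 member rows, 1 was called higher and 0 were called lower with an adjusted p below 0.05 and a 1.5-fold or larger change (5 were at an unadjusted p under 0.05, 4 higher and 1 lower, and DESeq2 and limma-voom also called 1 higher and 0 lower), against 11.6% of all tested genes called higher and 6.10% called lower (17.7% in either direction). At the adjusted p alone, 3 member rows were higher and 1 was lower, against 29.9% and 28.8% of all tested genes (58.7% in either direction). The 40.0% of member rows past the p threshold is thus below the share for all genes, and the 4 rows whose groups did not overlap compare with 64.2% of tested genes. The median log2 fold change was 0.12 over the member rows and 0.00 over all tested genes, where the median absolute change was 0.22. Of the genes past the p threshold, 51% were higher in the KO-labelled libraries, and 61.2% with upper-quartile scaling. The plot of members by library shows H19 apart from the rest and the spread of Malat1.

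**Figure D1:**
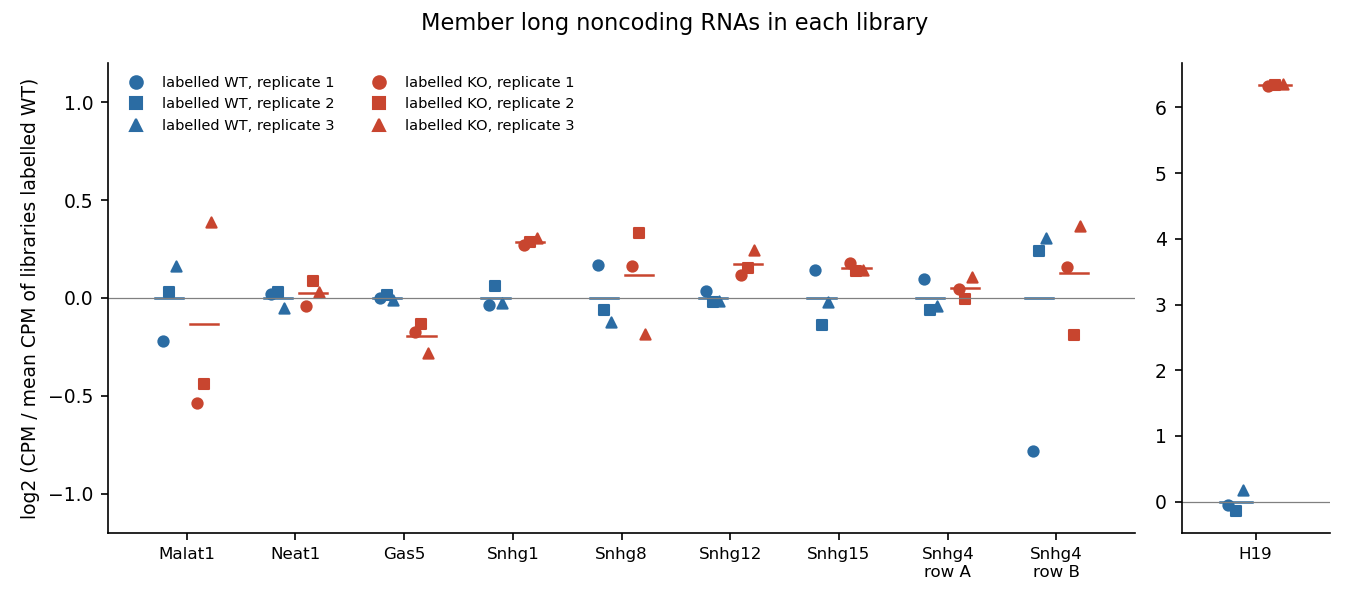
Level of each member in each library, as the log2 of its CPM over the mean CPM of the WT-labelled libraries, with short lines at the log2 of the group means. H19 has its own axis because its 3 libraries labelled KO lie above 6, while the other members stay within 1 of zero. Row A of Snhg4 is the noncoding gene and row B the gene that shares exons with Matr3.

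H19 (ENSMUSG00000000031, chr7:142575529-142578143, minus strand) gave 10, 10 and 12 counts in the WT-labelled libraries and 942, 1123 and 893 in the KO-labelled ones. Its level was 0.331 ± 0.040 CPM (SD, n = 3) in the former and 26.9 ± 0.235 CPM (SD, n = 3) in the latter. Among the KO-labelled libraries the highest was 1.02 times the lowest after scaling, and the groups were far apart. The log2 fold change was 6.33 (SE 0.10, 95% confidence interval 6.11 to 6.55), which is 80.4-fold, with an adjusted p of 1.06e-13 by edgeR's quasi-likelihood test. Of the 14289 tested genes, 54 had a larger increase. Per length, H19 moved from the lowest rows among the members, at 0.121 to 0.153 CPM per kb, to 10.8 to 11.0 CPM per kb, close to Snhg8.

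The nearest tested genes to H19 did not move with it. Igf2, a fetal growth factor imprinted in the opposite way to H19 and 72.62 kb away, had 86, 86 and 71 counts in the WT-labelled libraries and 22, 23 and 11 in the KO-labelled ones. It fell by 2.30 on the log2 scale (SE 0.21, adjusted p = 9.75e-07), so that the neighbours H19 and Igf2 had opposite signs. Mrpl23, a mitochondrial ribosomal protein gene on the other side at 34.78 kb, had a log2 fold change of -0.11 (SE 0.06, adjusted p = 0.120).

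Of 14 genes listed for the H19-Igf2 domain and imprinted growth control, 8 were in the table and 7 were tested, of which 2 were called higher and 2 lower. By the same rule 11.6% of all tested genes were called higher and 6.10% lower. Plagl1, an imprinted zinc finger transcription factor, rose from 1.29 ± 0.50 CPM to 339.7 ± 23.2 CPM (mean ± SD, n = 3), with a log2 fold change of 8.03 (SE 0.11, adjusted p = 2.64e-14). Peg3, a paternally expressed zinc finger gene, rose from 245.2 to 423 CPM (log2 fold change 0.79, SE 0.05). Igf2r, the receptor that clears Igf2 and is expressed from the maternal allele, fell from 798 to 343 CPM (log2 fold change -1.22, SE 0.06). Thus genes of separate imprinted loci moved in both directions, and no single direction by parental allele was seen among those named.

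Meg3 lies in the Dlk1-Dio3 domain on chromosome 12 (chr12:109541001-109571726, plus strand), and although it had no row, 5 of 7 listed genes of the domain did. Rian, a maternally expressed noncoding RNA downstream of Meg3, had 6, 8 and 5 counts in the WT-labelled libraries and 10, 16 and 10 in the KO-labelled ones, below the filter. Dlk1, the paternally expressed Notch ligand relative at the other end, had 3, 4 and 9 counts and then 27, 23 and 24 (adjusted p = 4.84e-04). Dio3, which inactivates thyroid hormone, had 250, 273 and 252 counts in the WT-labelled libraries and 5, 5 and 0 in the KO-labelled ones (adjusted p = 3.20e-10). Its antisense RNA Dio3os had 214, 231 and 183 counts and then 1, 2 and 2 (adjusted p = 1.20e-10). Begain, at the outer edge of the domain, had a log2 fold change of 0.12 (SE 0.14, adjusted p = 0.481). The domain therefore had both a gene that rose and 2 that fell to near the floor, with the maternal RNAs scarce or without a row in either group.

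**Figure D2:**
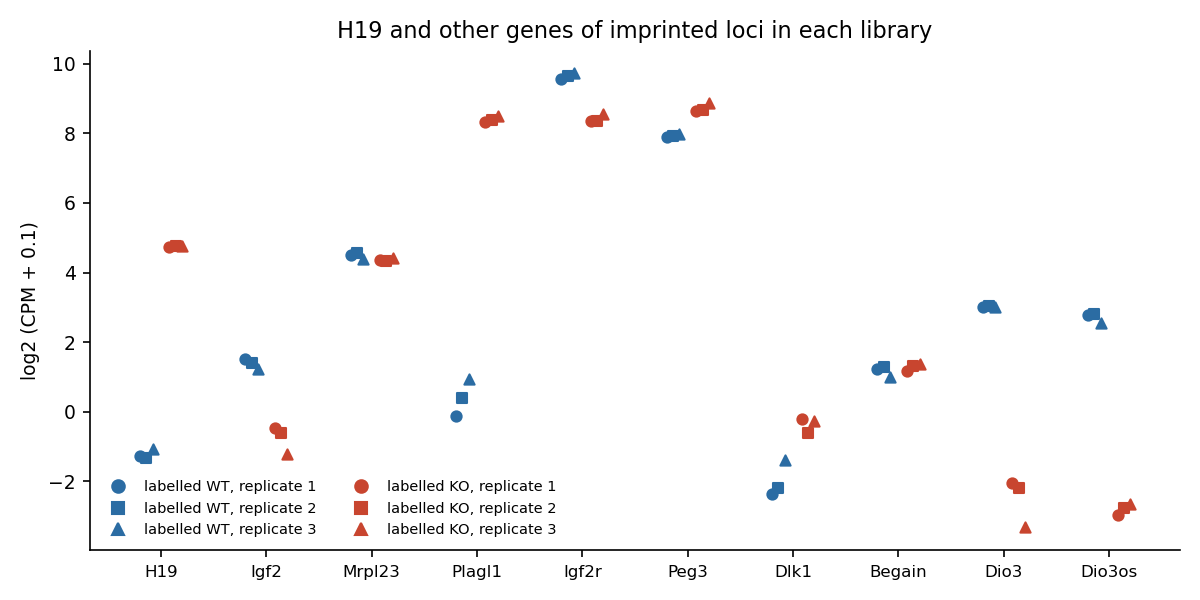
Level of H19 and of other genes of imprinted loci in each library, as log2 of CPM plus 0.1. H19, Plagl1, Peg3 and Dlk1 are higher and Igf2, Igf2r, Dio3 and Dio3os lower in the KO-labelled libraries, while Mrpl23 and Begain overlap.

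Factors known to maintain or erase imprints were read from a list of 12, of which 11 were tested. Called higher were Tet1, a dioxygenase that oxidizes methylcytosine, from 0.923 to 3.60 CPM (log2 fold change 1.97, SE 0.18), and Uhrf1, which brings the maintenance methyltransferase to replicating DNA, from 23.4 to 36.9 CPM (log2 fold change 0.66, SE 0.12). By edgeR 0 of the 11 were called lower (2 had an unadjusted p under 0.05 and a lower level, and DESeq2 and limma-voom called 0 lower). Dnmt1, the maintenance methyltransferase, rose by less than the fold limit, with a log2 fold change of 0.51 (SE 0.04, adjusted p = 3.49e-07). At the adjusted p alone 6 of the 11 were higher and 1 was lower. The 1 lower was Dnmt3a, another DNA methyltransferase, with a log2 fold change of -0.24 (SE 0.04, adjusted p = 4.59e-04). The other factors past the p threshold had smaller changes, and the list's median was 0.13. Of all tested genes 11.6% were called higher and 6.10% lower by edgeR, and 29.9% and 28.8% were so at the adjusted p alone.

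Malat1 (ENSMUSG00000092341, chr19:5795690-5802672, minus strand) was the most abundant member per length. It gave 658, 783 and 859 CPM in the WT-labelled libraries and 529, 565 and 1001 CPM in the KO-labelled ones. The third library labelled KO was the highest of all 6 and the other two were the lowest, so the groups overlapped. The log2 fold change was -0.14 (SE 0.19, 95% confidence interval -0.54 to 0.27, adjusted p = 0.554), and the interval reaches changes of about the median absolute size in both directions. Without KO replicate 3 it was -0.49 with an adjusted p of 7.43e-05, and without KO replicate 1 it was 0.02 with an adjusted p of 0.922. The sign and the side of the threshold thus each depend on 1 library.

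The spread between wells was unusual for so abundant an RNA. Malat1's biological coefficient of variation, the fitted spread between replicates beyond counting error, was 15.8%, and among 247 tested genes over 500 CPM only 1 had a higher value, where the median was 3.39%. Neat1, at a similar CPM, had 3.81%.

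Other transcripts deviated in the same libraries. After subtracting each group's own mean, Malat1 stood at -0.21, 0.04 and 0.17 (log2) in WT replicates 1 to 3 and at -0.34, -0.24 and 0.58 in KO replicates 1 to 3. The nuclear RNA Xist, which coats the inactive X chromosome, stood at -0.28, 0.06 and 0.22 and at -0.25, -0.07 and 0.32. Kcnq1ot1, an imprinted nuclear RNA, stood at -0.33, 0.02 and 0.31 and at -0.24, -0.25 and 0.48. Replicate numbers only name the libraries and pair none across the labels. Within each label, all 3 RNAs were highest in the library numbered 3, and among the WT-labelled libraries lowest in replicate 1.

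Transcript length moved with the same libraries. Over the 316 genes with merged exons over 15 kb and a mean of at least 5 CPM, the median deviation was 0.07 in WT replicate 3 and 0.09 in KO replicate 3, and -0.06 and -0.07 in WT replicate 1 and KO replicate 1. Over the 177 genes under 1 kb, it was -0.04 and -0.07 in WT replicate 3 and KO replicate 3, and 0.02 in both first replicates. Among 4489 other genes at 50 CPM or more, the 10 whose deviations rose most with Malat1's had a median length of 17.95 kb against 5.4 kb for all, and they included Zbtb20, Syne1, Dst, Lrp1 and Kmt2a (chosen after their values were seen). The steepest of the 10, Gm24270, was an exception at 0.1 kb. Malat1 itself, at 6983 bases, belongs to the class of 5 to 10 kb, whose median deviation was 0.01 in both of those replicate 3 libraries. The part of length in Malat1's spread was not tested further, and with each library's trend on length removed, the log2 fold change was -0.12 with an adjusted p of 0.548. Neat1, whose gene is annotated at 20.8 kb in its long form, did not follow the long transcripts, with deviations of 0.02, 0.03 and -0.05 and of -0.07, 0.06 and 0.01.

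**Figure D3:**
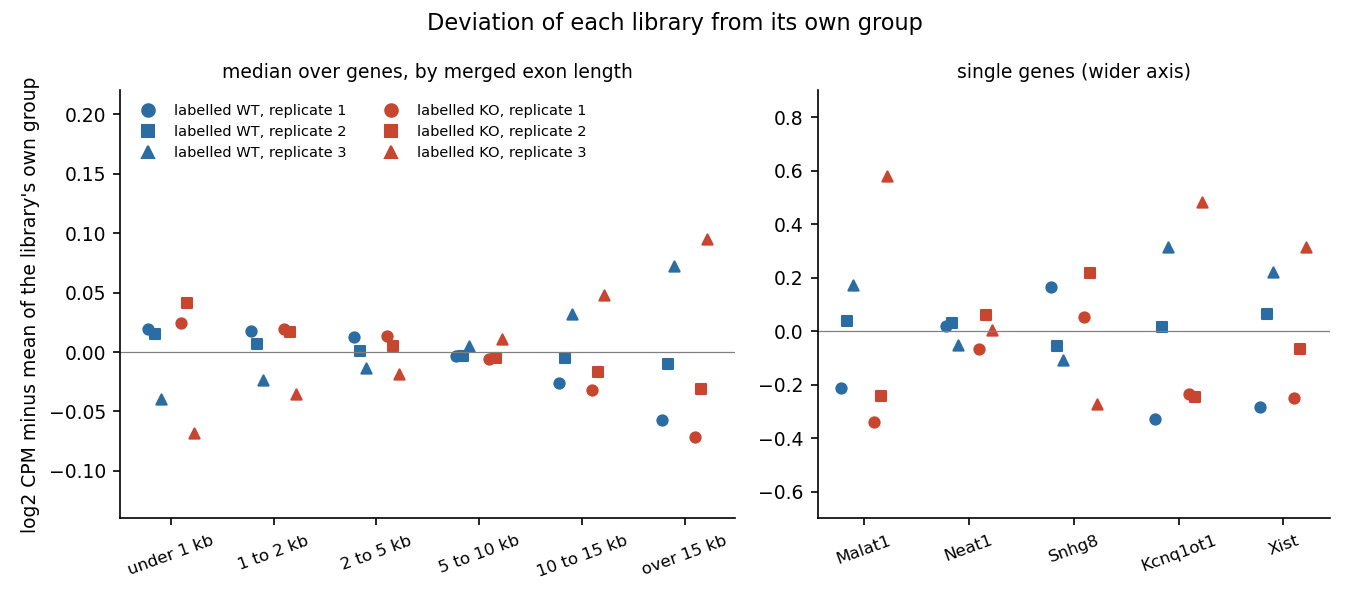
Deviation of each library's log2 CPM from the mean of its own group, as the median over genes of a length class (left) and for single genes on a wider axis (right). Long transcripts are high and short ones low in replicate 3 of both groups. Malat1, Kcnq1ot1 and Xist are high in those libraries, Snhg8 is low in them, and Neat1 stays within 0.07 of zero.

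Neat1 (ENSMUSG00000092274, chr19:5824708-5845478, minus strand) lies 22.04 kb from Malat1 and is transcribed from the same strand. Its level was 810, 818 and 772 CPM in the WT-labelled libraries and 777, 848 and 817 CPM in the KO-labelled ones. The libraries interleaved, with a log2 fold change of 0.03 (SE 0.04, 95% confidence interval -0.05 to 0.10, adjusted p = 0.568). The sign turned without WT replicate 3 or KO replicate 2, and no alternative passed the threshold. The short form lies within the long form, so a count by gene cannot tell the forms apart.

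Of 24 tested paraspeckle proteins 0 were called in either direction by edgeR (11 at an unadjusted p under 0.05; 0 called by DESeq2 and by limma-voom). At the adjusted p alone 8 were higher and 3 lower, with a median log2 fold change of 0.02. Nono, a core paraspeckle protein, had a log2 fold change of -0.40 (SE 0.03) and its partner Pspc1 one of 0.40 (SE 0.06). Of 22 nuclear speckle proteins 0 were called by edgeR, DESeq2 or limma-voom (10 at an unadjusted p under 0.05), and 6 were higher and 4 lower at the adjusted p alone. Of 12 tested factors of the 3′ ends of Malat1 and Neat1, the 1 called was Rpp25, a subunit of the RNase P and MRP complexes, which fell from 8.39 to 2.05 CPM (log2 fold change -2.03, SE 0.10, adjusted p = 3.81e-09). Of all tested genes 17.7% were called by edgeR, and at the adjusted p alone 29.9% were higher and 28.8% lower.

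Other long noncoding RNAs gave the setting for the nuclear members. Of 49 listed, 27 were tested. Of all tested genes 11.6% were called higher and 6.10% lower by edgeR. Of the 27, 0 were called higher and 6 lower by edgeR, DESeq2 and limma-voom alike (5 higher and 12 lower at an unadjusted p under 0.05). Xist was among the lower ones, from 1227 ± 211 CPM to 704 ± 145 CPM (SD, n = 3 each; log2 fold change -0.80, SE 0.13, adjusted p = 1.76e-04), and so were Ptprv, at -2.05 (SE 0.10), and Airn, the antisense RNA of the Igf2r locus, at -1.70 (SE 0.16). Airn and Igf2r were both lower in the KO-labelled libraries. The summed share of counts on 1195 genes annotated as lincRNA, antisense RNA or processed transcript was 0.984% to 1.04% in the WT-labelled libraries and 0.870% to 1.03% in the KO-labelled ones (exact two-sided permutation test, p = 0.3; 3 against 3 cannot go below 0.1).

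Gas5 (ENSMUSG00000053332, chr1:161034422-161038539, plus strand) was the most abundant of the member snoRNA hosts and the 1 member that was lower at the adjusted p. It gave 185, 187 and 184 CPM in the WT-labelled libraries and 164, 169 and 152 CPM in the KO-labelled ones. Each KO-labelled library was below each WT-labelled one. The log2 fold change was -0.19 (SE 0.04, 95% confidence interval -0.28 to -0.11, adjusted p = 6.25e-04), a ratio of 0.874. Zbtb37, a gene on the opposite strand whose span overlaps Gas5, had a log2 fold change of -0.25 (SE 0.10, adjusted p = 0.0571), and the 2 genes share no annotated exon bases. The neighbouring gene Rc3h1 had a log2 fold change of 0.02 (SE 0.06, adjusted p = 0.814).

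Snhg1 (ENSMUSG00000108414, chr19:8723475-8726443, plus strand), host of a cluster of box C/D snoRNAs, was higher. It gave 38.5, 41.2 and 38.8 CPM in the WT-labelled libraries and 47.6, 48.2 and 48.9 CPM in the KO-labelled ones. The groups did not overlap, and the log2 fold change was 0.29 (SE 0.04, 95% confidence interval 0.20 to 0.37, adjusted p = 4.35e-05), or 1.22-fold. Slc3a2, the heavy chain of amino acid transporters, starts on the other strand 105 bases away. It had 6818, 6878 and 6491 counts in the WT-labelled libraries and 9096, 10349 and 8062 in the KO-labelled ones, a log2 fold change of 0.26 (SE 0.03, adjusted p = 2.98e-05). The 2 divergent genes were both higher, while Wdr74 on the far side had a log2 fold change of 0.01 (SE 0.05, adjusted p = 0.848).

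Snhg12 (ENSMUSG00000086290, chr4:132308623-132311024, plus strand), which holds both kinds of snoRNA, gave 11.7, 11.3 and 11.3 CPM in the WT-labelled libraries and 12.4, 12.7 and 13.5 CPM in the KO-labelled ones. Its groups did not overlap, and the log2 fold change was 0.17 (SE 0.06, 95% confidence interval 0.03 to 0.31, adjusted p = 0.0336). The call was lost with DESeq2 (adjusted p = 0.127) and without WT replicate 2 (0.0922), WT replicate 3 (0.0858), KO replicate 2 (0.0649) or KO replicate 3 (0.111). Its neighbours Rab42 and Trnau1ap did not pass the threshold (log2 fold changes 0.35 and -0.07).

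Snhg15 (ENSMUSG00000085156, chr11:6525591-6528760, minus strand), host of Snora9, gave 18.3, 15.05 and 16.4 CPM in the WT-labelled libraries and 18.8, 18.2 and 18.3 CPM in the KO-labelled ones. WT replicate 1 reached the level of the KO-labelled libraries. The log2 fold change was 0.15 (SE 0.07, adjusted p = 0.0688), and without WT replicate 1 it was 0.23 with an adjusted p of 0.00718. Without WT replicate 2 it was 0.09 with an adjusted p of 0.307. The neighbouring genes Gm11973 and Ccm2 were not past the threshold.

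Snhg8 (ENSMUSG00000104960, chr3:123507552-123508404, minus strand), host of Snora24, gave 9.99, 8.51 and 8.18 CPM in the WT-labelled libraries and 9.94, 11.2 and 7.82 CPM in the KO-labelled ones. The third replicate was the lowest in each group, the reverse of Malat1. The log2 fold change was 0.13 (SE 0.12, 95% confidence interval -0.13 to 0.39, adjusted p = 0.373). Without KO replicate 3 it was 0.26 with an adjusted p of 0.0322, and without KO replicate 2 it was 0.0011 with an adjusted p of 0.994. Its 2 neighbours changed in opposite directions: Prss12, a serine protease gene 954 bases away, had 36, 35 and 41 counts in the WT-labelled libraries and 0, 0 and 1 in the KO-labelled ones (adjusted p = 2.72e-07), and Ndst3, a heparan sulfate enzyme gene at 17.76 kb, had a log2 fold change of 0.96 (SE 0.12, adjusted p = 2.14e-05).

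Snhg4, on chromosome 18, had 2 rows with the same symbol. The first (ENSMUSG00000117869), annotated as noncoding and holding Snora74a, gave 6.41, 5.73 and 5.83 CPM in the WT-labelled libraries and 6.18, 5.98 and 6.45 CPM in the KO-labelled ones, with a log2 fold change of 0.05 (SE 0.09, adjusted p = 0.649). The second (ENSMUSG00000117694) is annotated as protein coding and shares 1754 exon bases with Matr3 on the same strand, so its reads could be split between genes. It had 6, 13 and 13 counts in the WT-labelled libraries and 13, 12 and 14 in the KO-labelled ones, and at this depth no difference was detectable (log2 fold change 0.10, SE 0.35, adjusted p = 0.823; -0.16 without WT replicate 1 and -0.02 without KO replicate 3). It also shares 310 exon bases with Gm50163, an antisense gene with 83, 55 and 77 counts and then 49, 52 and 39 (log2 fold change -0.81, SE 0.19, adjusted p = 0.00298), and the part of its reads in the row was not tested. Matr3 itself, a nuclear matrix protein, had a log2 fold change of -0.15 (SE 0.04, adjusted p = 0.00418), and the other neighbours Sil1 and Paip2 had log2 fold changes of -0.46 (SE 0.04, adjusted p = 4.87e-07) and -0.14 (SE 0.03, adjusted p = 0.00125).

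Over all members, the nearest tested genes on both sides were 19 distinct genes, including Malat1 and Neat1, which are neighbours of each other. Of the 19, 1 was called higher (Ndst3) and 2 lower (Igf2 and Prss12), against 11.6% and 6.10% of all tested genes. Frmd8, beside Neat1, had a log2 fold change of -0.14 (SE 0.04, adjusted p = 0.00616). At the adjusted p alone 2 neighbours were higher and 6 lower, so 11 of the 19 did not pass. Among all tested genes 29.9% were higher and 28.8% lower at that threshold.

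**Figure D4:**
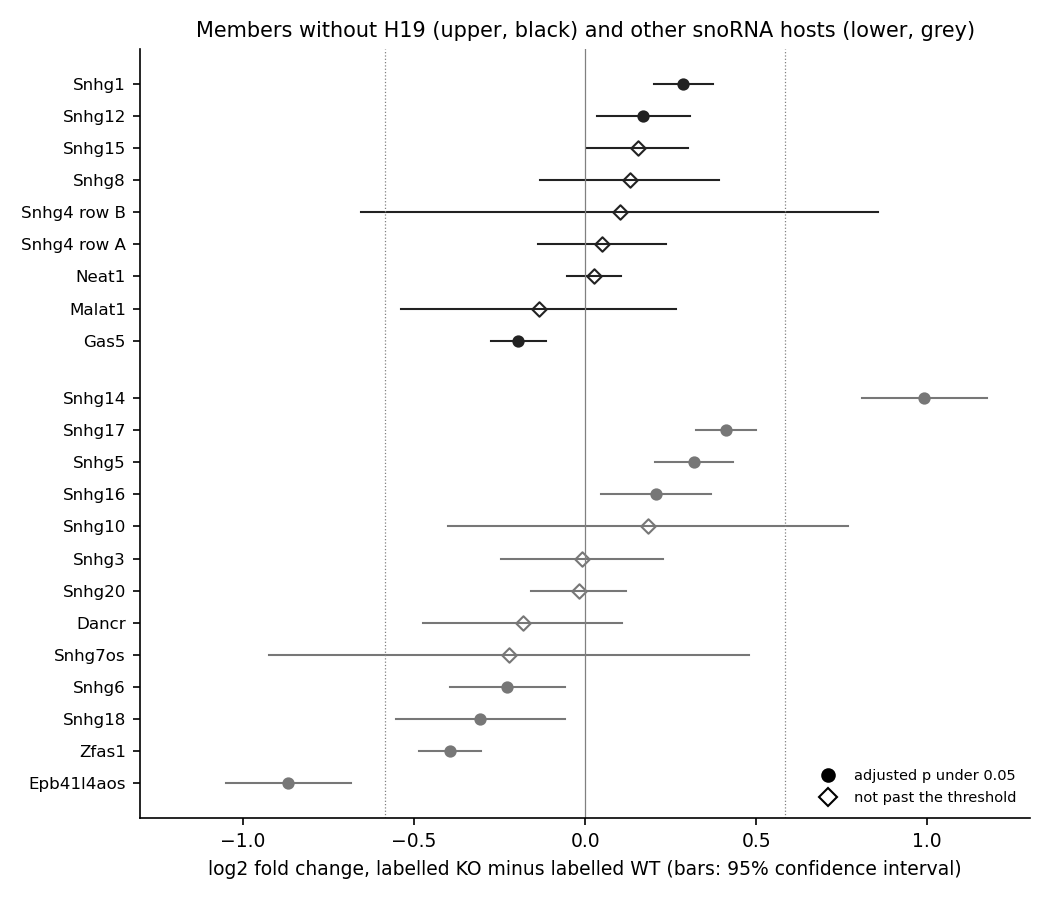
Log2 fold change, labelled KO minus labelled WT, with 95% confidence intervals, for the members without H19 (black) and for the 13 other tested snoRNA hosts (grey). Filled circles passed an adjusted p under 0.05, and dotted lines mark 1.5-fold. The member hosts lie between -0.19 and 0.29, and Snhg14 and Epb41l4aos lie outside the dotted lines.

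The 13 other tested snoRNA hosts moved both ways, with 1 called higher and 1 lower, and with 4 higher and 4 lower at the p alone (2 lower without WT replicate 1, without WT replicate 2 or without KO replicate 3). Of all tested genes 11.6% were called higher and 6.10% lower, and 29.9% and 28.8% were so at the p alone. Snhg14, the long host over the Prader-Willi and Angelman region, rose from 4.76 to 9.47 CPM (log2 fold change 0.99, SE 0.08, adjusted p = 5.56e-07). Epb41l4aos fell from 23.0 to 12.6 CPM (log2 fold change -0.87, SE 0.08, adjusted p = 1.90e-06). Zfas1, like Gas5 a host with a 5′ pyrimidine tract, fell by 0.39 on the log2 scale (SE 0.04), and Snhg6 by 0.23 (SE 0.08) and Snhg18 by 0.31 (SE 0.11). Snhg17 rose by 0.41 (SE 0.04), Snhg5 by 0.32 (SE 0.05) and Snhg16 by 0.21 (SE 0.07). The 5 that did not pass were Dancr at -0.18, Snhg7os at -0.22, Snhg10 at 0.18, Snhg20 at -0.02 and Snhg3 at -0.01. The median was -0.02 for these hosts and 0.13 for the 7 member host rows, and of the latter 3 were past the adjusted p and all 7 stayed under 1.5-fold.

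Of 20 tested proteins of the box C/D and H/ACA snoRNA particles, which fold and protect the snoRNAs, 0 were called by edgeR, DESeq2 or limma-voom (9 at an unadjusted p under 0.05), and 5 were higher and 2 lower at the adjusted p alone. Gar1, a subunit of the H/ACA particle, had a log2 fold change of 0.43 (SE 0.08), the largest of the list. Of 19 nonsense-mediated decay factors 0 were called by the same 3 tools (12 at an unadjusted p under 0.05), with 6 higher and 4 lower at the adjusted p. Of 22 mRNAs other than those of ribosomal proteins that begin with a 5′ terminal pyrimidine tract, 0 were called by the 3 tools (17 at an unadjusted p under 0.05), and 9 were higher and 7 lower at the adjusted p. The medians of the 3 lists were 0.09, 0.07 and 0.04, beside 0.00 for all tested genes, and the p alone was passed by 58.7% of those. By edgeR 17.7% of all tested genes were called.

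Windows around the transcription start of the hosts are shown for Gas5, Snhg12 and Snhg15, from 100 bases before the start to 50 after (RefSeq, GRCm38.p6), to set the hosts that fell, rose and did not pass side by side. Capitals mark the motif TGACGTCA, the full cAMP response element, which reads the same on both strands, and a run of pyrimidines that begins with C, has at least 5 bases and starts within 5 bases of the start site. Gas5 has another start window upstream (chr1:161034351-161034650), which held neither and is not shown.
Gas5, chr1:161035066-161035215, plus strand: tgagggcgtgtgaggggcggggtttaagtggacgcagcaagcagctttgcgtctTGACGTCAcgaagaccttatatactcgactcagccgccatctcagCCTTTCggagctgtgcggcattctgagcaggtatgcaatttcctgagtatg
Snhg12, chr4:132308578-132308727, plus strand: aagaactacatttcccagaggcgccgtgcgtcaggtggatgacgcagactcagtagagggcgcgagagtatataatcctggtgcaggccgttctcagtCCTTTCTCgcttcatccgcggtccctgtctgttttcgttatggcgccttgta
Snhg15, chr11:6528711-6528860, minus strand: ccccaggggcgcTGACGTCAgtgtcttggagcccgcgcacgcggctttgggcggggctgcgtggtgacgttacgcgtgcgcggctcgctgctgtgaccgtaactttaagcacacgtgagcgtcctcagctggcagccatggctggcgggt

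In 300-base windows, 9 of which belong to 7 members, TGACGTCA was found in 3 member windows (Gas5, Snhg15 and Meg3) and in 1.79% of all 32851 windows. The pyrimidine run was found in 4 member windows (Gas5, Snhg8, Snhg12 and Meg3) and in 16.1% of all. Gas5 and Meg3 each had another window that held neither. The Gli site GACCACCCA, searched on both strands, was found in 0 member windows and in 0.253% of all. At that share, 9 windows are too few for a count of 0 to be informative. H19, Neat1 and Snhg4 had no window and were not searched. Gas5 and Snhg12 share the run, with log2 fold changes of -0.19 and 0.17, and Snhg12 did not pass the threshold with DESeq2. The window of Snhg1, which was higher, held neither TGACGTCA nor the run. The part of these motifs in the changes was not tested.

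**Figure D5:**
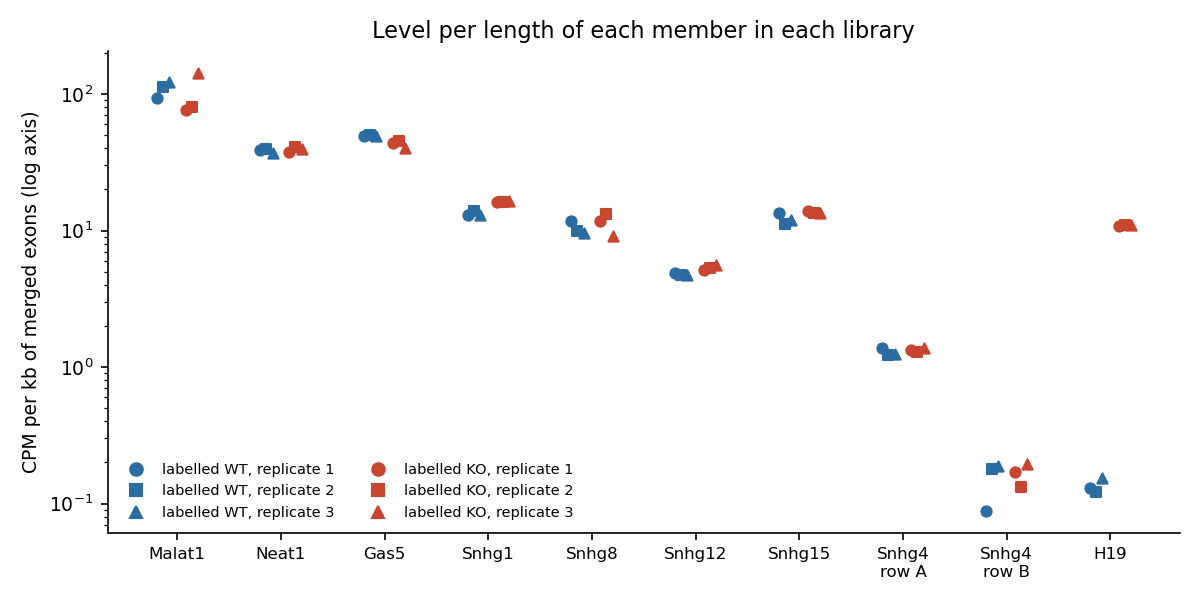
CPM per kb of merged exons of each member in each library, on a log axis. Malat1, Gas5 and Neat1 are the highest, between 37.2 and 143, and H19 moves from beside the second Snhg4 row to beside Snhg8 between the labels.

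Per length, the members spanned a wide range within a library. Malat1 lay at 75.7 to 143 CPM per kb of merged exons, Gas5 at 40.5 to 49.7 and Neat1 at 37.2 to 40.8. Snhg1 lay at 13.0 to 16.5, Snhg15 at 11.1 to 13.8 and Snhg8 at 9.16 to 13.1, so that these neighbours in the order overlapped. Snhg12 followed at 4.70 to 5.64 and the first Snhg4 row at 1.23 to 1.38. The order among Gas5 and Neat1 depends on the length used: per kb of the median annotated transcript, the mean in the WT-labelled libraries was 295 for Gas5 and 397 for Neat1, since annotated forms of Gas5 run from 346 to 2556 bases and those of Neat1 from 711 to 20771. The overlap of Snhg1, Snhg15 and Snhg8 depends on it too. Per kb of the median transcript they lay apart, at 63.9 to 81.2, 25.2 to 31.5 and 14.8 to 21.2.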

How the data were processed

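The authors deposited raw counts per gene, not normalized, and a second table of voom values, which are log2 CPM. The submitters' processing notes name STAR 2.7.2b, featureCounts, limma and build GRCm38.p6; the annotation release and the strand setting are not given in the sources used here. RNA was extracted from wells with a column kit and DNase, and libraries were made from polyadenylated RNA. Without a known strand setting, reads of overlapping antisense genes cannot be told apart (for Malat1, Gm37376; for the second Snhg4 row, Gm50163).

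The counts entered edgeR 4.0.16 (R 4.3.3; TMM, filterByExpr, quasi-likelihood F test, Benjamini-Hochberg adjustment over 14289 genes). A gene was called at an adjusted p under 0.05 and at least 1.5-fold. CPM uses TMM-scaled library sizes. Deviations within groups used log2 of CPM plus 0.5. Lengths and positions are from GENCODE M21, which matched 14822 of 14831 identifiers. On simulated counts with 200 changed genes among 14094, edgeR recovered 100% at the adjusted p alone, with 8 false calls. Every simulated gene had the same coefficient of variation, 3.74%, and the changed genes excluded low levels and moved by at least 1.5-fold. The recovery therefore does not apply to Malat1's spread (15.8%), to the second Snhg4 row or to changes under 1.5-fold. Pairs of libraries of a group differed by more than sampling noise (chi-square per degree of freedom 2.50 to 7.74), so each counts once. No rows from the mitochondrial chromosome were in the table. Histone genes took 0.0356% to 0.0364% of counts in the WT-labelled libraries and 0.0327% to 0.0340% in the KO-labelled ones. The exact two-sided permutation test gave p = 0.1, the lowest that 3 against 3 allows.

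Members and lists were chosen with earlier results of these data known. Named are the members, Gli2, Gli3, Gli1 and Ptch1, the nearest tested gene on each side of a member (2 of which are not reported here), up to 4 called genes of each other list with the largest change whose higher group had 100 counts or more throughout, and every tested gene of the other snoRNA hosts and the Dlk1-Dio3 domain. Nono, Pspc1, Gar1, Dnmt1, Dnmt3a, Kcnq1ot1, Rian, Rn7sk, Vwf, Zbtb37, Gm50163 and the genes that moved with Malat1 are named outside that rule. Alternatives were other scalings, filters, fold limits and tools (DESeq2 1.42.0, limma 3.58.1), leaving out each library, and, chosen after seeing the data, removal of each library's trend on transcript length.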

Additional observations from a re-analysis of the deposited data

How the results depend on the processing

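Over 159 values of the members' log2 fold changes under other scalings, filters, tools and sets of libraries, 144 kept their direction and side of the threshold, 5 lost the threshold, 5 gained it and 5 turned sign. H19 stayed between 6.26 and 6.43, Snhg1 between 0.27 and 0.34, and Gas5 between -0.23 and -0.14, in all 16 alternatives. The values that turned were those of Malat1 (0.0237 without KO replicate 1, in a range from -0.4862 to 0.0237 leaving out 1 library), Neat1 (-0.0017 without WT replicate 3 and -0.007 without KO replicate 2, in a range up to 0.0533) and the second Snhg4 row (-0.1639 without WT replicate 1 and -0.0248 without KO replicate 3); the cause was not tested. With no fold limit, 3 members were higher and 1 lower, by construction of the rule. Leaving out 1 library at a time, 1 member was called higher and 0 lower each time, 2 to 4 were higher at the p alone and 1 to 2 lower, the 2 being Gas5 and Malat1 without KO replicate 3. Other snoRNA hosts past the p alone numbered 3 to 4 higher and 2 to 4 lower. Snhg15 passed with upper-quartile factors (0.21, adjusted p = 0.0178) and with total counts (0.19, adjusted p = 0.0298). Removing the length trend left the 10 member rows on the same side. The difference in the share of counts on lincRNA, antisense and processed transcript genes ran from -0.1447 to -0.0662 percentage points, and that on histone genes from -0.0026 to -0.002. Depth limits the second Snhg4 row, Rian and Dlk1. No paired analysis was possible because the labels give the groups no shared replicate numbers.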
